A study of Mus musculus with 26 samples.

Results

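Voltage-gated sodium channels, voltage-gated calcium channels and the sodium leak channel Nalcn were followed in RNA from the nuclei and cytoplasm of mouse brain. The members are the 41 protein-coding genes, of 27502 entries in the count table, whose symbols follow the family names: Scn genes ending in a or b, Cacna1, Cacna2d1 to Cacna2d4, Cacnb1 to Cacnb4, Cacng1 to Cacng8, and Nalcn. They comprise 10 pore-forming sodium channel genes, 4 sodium channel beta subunit genes, 10 pore-forming calcium channel genes, 4 alpha2delta, 4 calcium channel beta and 8 gamma subunit genes, and Nalcn. The rule uses gene names alone and was set with earlier results of these data known.

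The 26 libraries fall into 7 groups and were made from whole brain, of mice that were 6 to 12 weeks old. Each of 3 transgenic lines carries a fusion of green fluorescent protein with the ribosomal protein Rpl10a. The B6.FVB strains are named Tg(Snap25-EGfp/Rpl10a)JD362Htz/J (neuron line, driven by the neuronal gene Snap25), Tg(Aldh1L1-EGfp/Rpl10a)JD130Htz/J (astrocyte line, driven by Aldh1L1) and Tg(Cnp-EGfp/Rpl10a)JD368Htz/J (oligodendrocyte line, driven by Cnp). For each line there were 4 libraries of sorted nuclei (sorted neuron, astrocyte or oligodendrocyte nuclei) and 4 of presort nuclei, which hold mixed cell types, with 2 libraries from each sex in every group. The cytoplasmic group had 2 libraries of whole-brain cytoplasm, 1 from a male of the astrocyte line and 1 from a female of the oligodendrocyte line. All groups carry a transgene, and whole brain pools all brain regions, so each sorted type is a mixture of its regional subtypes. Replicates are separate mice, as the series' design text states. The sorting method is not given in the sources used here.

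A voltage-gated sodium or calcium channel is built around a single large protein with 4 homologous repeats, which forms the pore and senses voltage. Sodium channels open first during an action potential, and their beta subunits set their kinetics and anchoring. High-voltage-activated calcium channels (L, P/Q, N and R type) couple depolarization to transmitter release, gene expression and contraction, and work with an alpha2delta and a beta subunit, whereas T-type channels open near rest. Nalcn is a related four-repeat channel that carries a resting sodium leak, and most brain-expressed gamma genes encode transmembrane AMPA receptor regulatory proteins (TARPs), which traffic and gate glutamate receptors.

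The coding stretch around the selectivity filter of the third repeat shows how near these pore genes are to each other, which bears on how reads can be assigned to them. The 63 bases are printed 5′ to 3′ on the coding strand, from the GENCODE M21 transcripts (GRCm38), for members abundant in the neuronal libraries and 1 T-type gene. Capitals mark the codon of the filter residue, which is lysine in sodium channels, glutamate in high-voltage-activated calcium channels and aspartate in T-type channels.
Scn2a: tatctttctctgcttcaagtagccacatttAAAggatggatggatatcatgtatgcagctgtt
Scn3a: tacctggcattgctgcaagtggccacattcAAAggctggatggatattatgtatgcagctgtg
Scn8a: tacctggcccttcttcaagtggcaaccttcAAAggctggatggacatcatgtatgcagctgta
Cacna1a: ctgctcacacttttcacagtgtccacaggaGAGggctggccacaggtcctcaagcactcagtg
Cacna1e: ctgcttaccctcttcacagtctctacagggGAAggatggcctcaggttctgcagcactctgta
Cacna1i: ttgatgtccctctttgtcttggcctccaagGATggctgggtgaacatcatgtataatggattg
All but the last of these stretches join 2 coding exons, so their genomic bounds enclose an intron. They lie at chr2:65735870-65743106 (+), chr2:65469024-65469946 (-) and chr15:101029842-101031751 (+) for the sodium channels, beginning in exon 22 in each case. For the calcium channels they lie at chr8:84581308-84583577 (+) from exon 27, chr1:154443984-154444915 (-) from exon 29 and chr15:80376777-80376839 (+) within exon 24. Among the 3 sodium channel stretches, between 9 (Scn3a against Scn8a) and 12 (Scn2a against Scn8a) of the 63 bases differ, and Cacna1a and Cacna1e differ at 14. Over whole transcripts, 6.49% of the 50-base windows of Scn3a, 5.62% of Scn2a and 4.04% of Scn9a also occur in another member. Reads from those windows could be split between genes. How such reads were assigned is not given in the sources used here.

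Total counts ranged from 134357 to 3239445 in sorted, 147826 to 3274488 in presort, and 3885312 to 4461568 in cytoplasmic libraries, and 3 counts, taken as the floor, equal 0.672 to 22.3 CPM depending on the library. CPM is a gene's count scaled to the library total. The summed CPM of 8 neuron markers was 5991 to 9151 in sorted neurons, 418 to 804 in sorted astrocytes and 546 to 1534 in sorted oligodendrocytes. The labelled glial types were highest in their own markers: 9 astrocyte markers summed to 20743 to 24554 CPM in sorted astrocytes, and 8 oligodendrocyte markers to 27454 to 36876 CPM in sorted oligodendrocytes. GFP, the transgene's tag, was at 466 ± 102, 503 ± 233 and 35.3 ± 24.5 CPM in sorted neurons, astrocytes and oligodendrocytes (mean ± SD of 4 libraries each). In presort nuclei of these lines it was at 221 ± 54.6, 106 ± 25.4 and 72.9 ± 17.8 CPM, so in the oligodendrocyte line every presort library was above every sorted one. Among the libraries, 1 stood apart, and it had no GFP count. Sorted oligodendrocyte replicate 36 had 7674 genes detected against 16223 to 16575 in the other 3 of its group, and 23 of the 41 members detected. The shallowest sorted library was astrocyte replicate 30, with 134357 counts and 27 members detected, and presort astrocyte-line replicate 29 was the only presort library above 313720 counts. Leaving out astrocyte replicate 30 left 19 members higher and 1 lower when neurons were set against astrocytes, the same counts as with it. Results among sorted libraries or in the oligodendrocyte line come from the fit with replicate 36. The value without it, from the remaining 11 sorted libraries or 7 libraries of the line, is added for the members whose call it changes, singly or as a count.

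Channel genes as a whole were far more abundant in sorted neurons than in either glial type. The 41 members together took 13134 ± 886 CPM in sorted neurons, 2065 ± 121 in astrocytes and 2645 ± 615 in oligodendrocytes (mean ± SD of 4 libraries each), and the neuronal libraries did not overlap the glial ones. Presort nuclei lay between, at 8729.9 to 10167 CPM in the neuron line, 8531 to 9626 in the astrocyte line and 7144 to 9799 in the oligodendrocyte line. The cytoplasmic libraries held 4509 to 4781 CPM. In such bulk libraries, fewer cells of a type and less RNA per cell cannot be told apart.

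**Figure D1:**
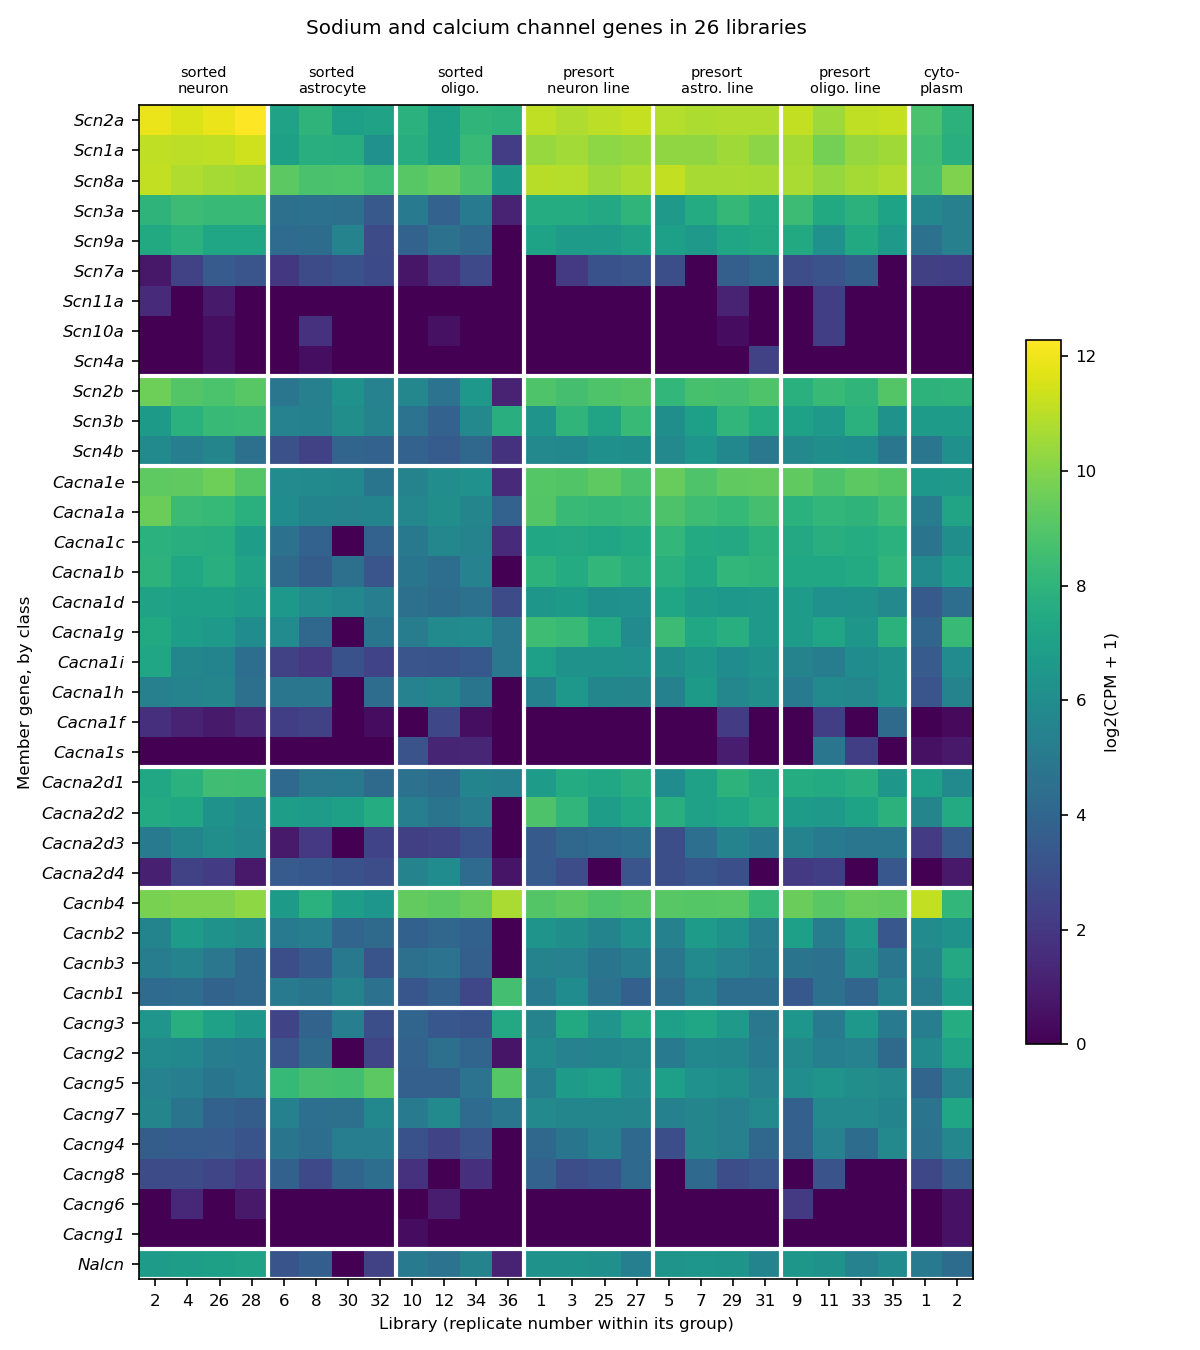
Expression of 39 members (rows, by class and ordered by level in sorted neurons) in each of the 26 libraries (columns, grouped), as log2(CPM + 1). Scn2a, Scn1a and Scn8a form the brightest rows in sorted neurons, Cacng5 is bright in sorted astrocytes, and the column of sorted oligodendrocyte replicate 36 differs from its 3 neighbours.

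Of the 34 members tested among the sorted libraries, 19 were higher in neurons than in astrocytes and 1 (Cacng5) was lower, by edgeR's quasi-likelihood test at an adjusted p below 0.05. Of all 13029 genes tested, 8.02% were higher and 11.4% lower. Against oligodendrocytes 16 members were higher and 2 (Cacna2d4 and Cacnb1) lower, where 10.7% of all genes were higher and 12.4% lower. The members' median log2 fold change was 2.46 against astrocytes and 1.75 against oligodendrocytes, and that of all genes tested 0.05 and 0.16. The 2 comparisons share the same neuronal libraries. In 14 members the neurons were higher than both glial types, among them Scn1a, Scn2a, Scn3a, Scn8a, Scn9a, Scn2b, Cacna1a, Cacna1b, Cacna1c, Cacna1e, Cacna2d1, Cacna2d3 and Nalcn. The share of all genes higher than both was not computed, with or without replicate 36. Without replicate 36 all 14 were again higher than both, by 1.82 to 4.42 against astrocytes and 1.45 to 4.01 against oligodendrocytes, and they were joined by Cacna1d, Cacna1i, Cacnb2, Cacng3, Scn3b and Scn4b. That fit called 25 members higher and 5 lower against astrocytes (17% and 20.6% of all genes), and 21 higher and 1 lower against oligodendrocytes (16.7% and 18.8%).

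The filter on low counts admits a gene through a single group. A member that passed only through the group where it was high was therefore more apt to differ. Such members are not set apart in the counts given here. The 7 members that did not pass were Cacna1f, Cacna1s, Cacng1, Cacng6, Scn4a, Scn10a and Scn11a, known from retina, skeletal muscle or sensory neurons. None of them exceeded 7.84 CPM in a sorted library or 26.9 CPM in any library. For 24 of the 34 tested members every neuronal library lay above every astrocyte library, against 20% of all genes, and for 4 below, against 15.1%. For 22 every neuronal library lay above every oligodendrocyte library, against 24.7%, and for none below, against 7.41%.

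**Figure D2:**
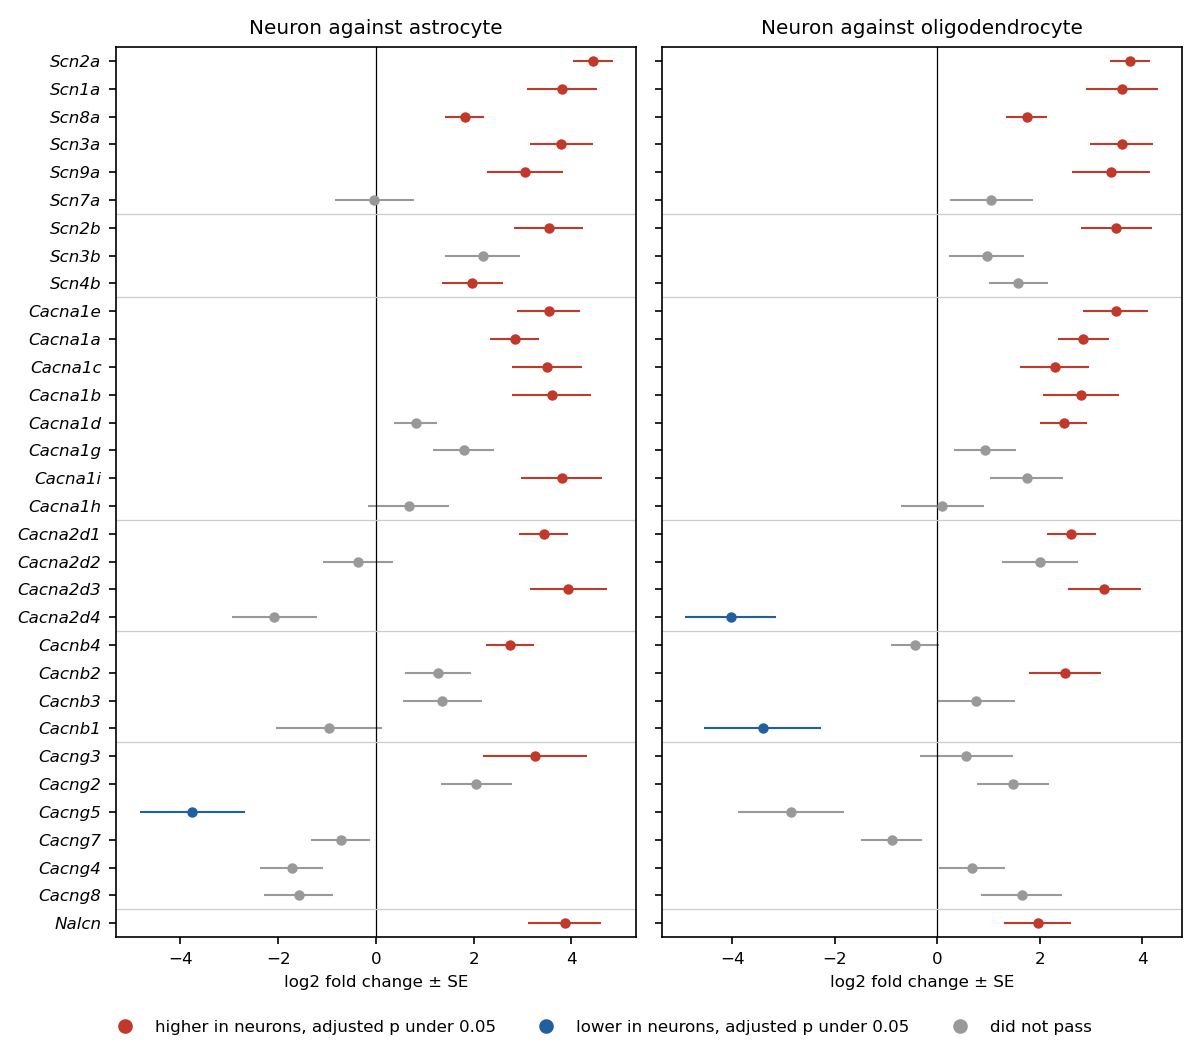
Log2 fold changes (points) with standard errors (bars) of 32 tested members in sorted neurons against sorted astrocytes and oligodendrocytes, all libraries included, with colours for the call. Most pore-forming sodium and calcium channel genes lie to the right of 0, with Cacng5 lower in the left panel and Cacna2d4 and Cacnb1 lower in the right one.

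Pore-forming sodium channel genes made up most of the members' counts in neurons. Their summed level was 8523 ± 902 CPM in sorted neurons, 812 ± 161 in astrocytes and 841 ± 332 in oligodendrocytes (mean ± SD of 4 libraries each). Scn2a, a main sodium channel of excitatory neurons and early axons, was counted at 3842, 3023, 3903 and 4974 CPM in sorted neurons, 134, 253, 119 and 134 in astrocytes and 231, 126, 258 and 241 in oligodendrocytes. Every neuronal library lay far above every glial one. The log2 fold change was 4.44 ± 0.40 (SE, adjusted p = 3.13e-06) against astrocytes and 3.76 ± 0.39 (SE, adjusted p = 5.16e-06) against oligodendrocytes. Without replicate 36 the latter was 4.01 ± 0.37 (adjusted p = 2.61e-07). Scn2a was higher in neurons in all 18 alternative settings tried for either comparison.

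Scn1a, prominent in fast-spiking inhibitory neurons, had 2199, 2158, 2189 and 2716 CPM in sorted neurons, 127, 209, 201 and 71.9 in astrocytes and 198, 127, 308 and 3.74 in oligodendrocytes. All neuronal libraries were above all glial ones, and the 3.74 CPM of oligodendrocyte replicate 36 was far below the other 3. Scn1a was higher in neurons, by 3.80 ± 0.72 (adjusted p = 0.00113) against astrocytes and 3.61 ± 0.71 (adjusted p = 0.00155) against oligodendrocytes on the log2 scale. Scn3a, a channel more abundant in the developing brain, was at 249, 339, 311 and 306 CPM in sorted neurons, 22.2, 23.8, 22.3 and 9.88 in astrocytes and 33.1, 13.3, 33.5 and 1.25 in oligodendrocytes. Its groups did not overlap either, and its log2 fold changes were 3.80 ± 0.64 (adjusted p = 0.00049) and 3.60 ± 0.62 (adjusted p = 0.000585). Scn9a, best known from pain-sensing neurons, was at 172, 228, 146 and 155 CPM in sorted neurons, 18.8, 19.5, 44.7 and 6.17 in astrocytes and 13.6, 22.9, 17.1 and 0 in oligodendrocytes. Neurons were again above every glial library, by 3.04 ± 0.78 (adjusted p = 0.00981) and 3.39 ± 0.76 (adjusted p = 0.00404).

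Scn8a, the main sodium channel of mature nodes of Ranvier and axon initial segments, showed a smaller difference than Scn2a. It was at 2264, 1779.5, 1591 and 1485 CPM in sorted neurons, 584, 430.2, 439 and 352 in astrocytes and 544, 642, 427 and 102 in oligodendrocytes. Every neuronal library exceeded every glial one, and the log2 fold change was 1.82 ± 0.40 (adjusted p = 0.00362) against astrocytes and 1.75 ± 0.40 (adjusted p = 0.00464) against oligodendrocytes. Among the counts of pore-forming sodium channels, Scn8a made up 15.4 to 25.9% in the neuronal libraries, 45.5 to 65.6% in the astrocyte libraries and 29.4 to 68.2% in the oligodendrocyte libraries. Scn2a made up 40.1 to 51.5%, 14.3 to 26.7% and 13.4 to 69.2% of them, the highest oligodendrocyte share being that of replicate 36. Thus Scn2a was the larger share in all neuronal libraries and Scn8a in all astrocyte libraries. These shares were not tested.

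Scn7a, an atypical channel implicated in sodium sensing, did not exceed 10.4 CPM in a sorted library and passed in neither comparison. Scn4a, Scn10a and Scn11a were among those not tested.

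Among sodium channel beta subunits, Scn2b was higher in neurons than in both glial types and Scn4b than in astrocytes. Scn2b, a disulphide-linked subunit that promotes surface expression, was counted at 754, 501, 443 and 545 CPM in sorted neurons, 27.3, 39.8, 74.4 and 43.2 in astrocytes and 49.8, 24.8, 92.0 and 1.25 in oligodendrocytes. All neuronal libraries were above all glial ones, and the log2 fold changes were 3.54 ± 0.71 (adjusted p = 0.00179) and 3.49 ± 0.69 (adjusted p = 0.00172). Scn4b, linked to resurgent current, was higher against astrocytes (1.98 ± 0.62, adjusted p = 0.0316), which held in 12 of 18 alternative settings (adjusted p up to 0.985), and did not pass against oligodendrocytes (1.58 ± 0.58, adjusted p = 0.0578), where it was 1.31 ± 0.43 (adjusted p = 0.0229) without replicate 36. Scn3b gave 2.19 ± 0.77 (adjusted p = 0.0585) and 0.97 ± 0.73 (adjusted p = 0.378), which did not pass. Without replicate 36, where it stood at 213 CPM against 13.4 to 54.4 in the other oligodendrocyte libraries, it was 2.21 ± 0.40 (adjusted p = 0.000248) and 2.71 ± 0.44 (adjusted p = 0.000105).

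Genes for proteins that anchor or modulate sodium channels moved in more than 1 direction. Of 10 such partners, 5 were higher in neurons than in astrocytes: the axon initial segment scaffolds Ank3 (2.62 ± 0.31) and Sptbn4 (3.09 ± 0.77), the adhesion molecule Cntn1 (1.34 ± 0.34), the intracellular growth factor homolog Fgf14 (2.82 ± 0.78) and the ubiquitin ligase Nedd4l (1.69 ± 0.47). The other 5 did not pass. Against oligodendrocytes 7 were higher (Sptbn4, Nrcam, Cntn1, Fgf12, Fgf13, Fgf14 and Nedd4l, from 1.86 to 3.42) and 1 lower. That gene was Nfasc, whose products include a neuronal and a glial neurofascin, at -3.32 ± 0.40. Between the glial types, astrocytes had less Ank3 (-2.93 ± 0.31) and Nfasc (-2.37 ± 0.39) and more Nrcam (3.44 ± 0.44) and Cntn1 (1.06 ± 0.34) than oligodendrocytes. Without replicate 36, 6 of the 10 were higher in neurons than in astrocytes and 2 lower (Nfasc at -0.96 ± 0.30 and Fgf11 at -1.64 ± 0.42), 7 were higher and 1 lower against oligodendrocytes, and astrocytes had 3 higher and 2 lower than oligodendrocytes.

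Nalcn was at 107, 118, 126 and 135 CPM in sorted neurons, 8.10, 11.7, 0 and 4.32 in astrocytes and 32.4, 24.3, 44.7 and 1.25 in oligodendrocytes. Neuronal libraries were above all others. Oligodendrocyte replicates 10, 12 and 34 lay above every astrocyte library, and replicate 36 was at 1.25 CPM. The log2 fold change was 3.86 ± 0.74 (SE, adjusted p = 0.00128) against astrocytes and 1.96 ± 0.66 (SE, adjusted p = 0.04) against oligodendrocytes, where the call held in 10 of 18 alternative settings (adjusted p up to 0.592). Without replicate 36, Nalcn was lower in astrocytes than in oligodendrocytes, with a log2 fold change of -2.21 ± 0.38 (adjusted p = 0.000242). Auxiliary subunits of its channel complex were measured beside it. Unc79 (2.35 ± 0.74), Unc80 (2.92 ± 0.38) and Fam155a (2.17 ± 0.73), all 3 that were tested, were higher in neurons than in astrocytes. Against oligodendrocytes Unc79 (3.32 ± 0.76) and Unc80 (2.92 ± 0.38) passed, and without replicate 36 so did Fam155a (1.49 ± 0.37).

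Pore-forming calcium channel genes summed to 1736 ± 463 CPM in sorted neurons, 237 ± 78.3 in astrocytes and 254 ± 119 in oligodendrocytes (mean ± SD of 4 libraries each). Of the 10 genes, 5 were higher in neurons in each comparison, none was lower, 3 did not pass and 2 were not tested. Cacna1e, the R-type pore, was the most abundant in neurons, with 605, 615, 751 and 515 CPM in sorted neurons, 58.8, 55.0, 52.1 and 25.9 in astrocytes and 44.0, 63.4, 73.4 and 1.87 in oligodendrocytes. The groups were separate, and the log2 fold change was 3.54 ± 0.64 (adjusted p = 0.000838) against astrocytes and 3.48 ± 0.63 (adjusted p = 0.000885) against oligodendrocytes. Cacna1a, the P/Q-type pore of fast transmitter release, was at 739, 329, 297 and 218 CPM in sorted neurons, 61.0, 45.7, 44.7 and 45.7 in astrocytes and 51.1, 65.8, 46.6 and 13.7 in oligodendrocytes. It was separate too, and was higher by 2.84 ± 0.50 (adjusted p = 0.000695) and 2.85 ± 0.50 (adjusted p = 0.000637). Cacna1b, the N-type pore, had 245, 162, 207 and 133 CPM in sorted neurons, 17.9, 11.3, 22.3 and 8.33 in astrocytes and 25.9, 20.5, 42.8 and 0 in oligodendrocytes. Its log2 fold changes were 3.59 ± 0.80 (adjusted p = 0.004) and 2.80 ± 0.74 (adjusted p = 0.0121), with every neuronal library above every glial one.

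The L-type genes differed in their glial pattern. Cacna1c, the main L-type pore of brain and heart, was at 229.8, 209, 202 and 116 CPM in sorted neurons, 22.6, 13.7, 0 and 13.6 in astrocytes and 30.3, 50.1, 44.3 and 1.87 in oligodendrocytes. It was higher in neurons than in both glial types (3.50 ± 0.72, adjusted p = 0.00227 and 2.29 ± 0.67, adjusted p = 0.021). Without replicate 36 it was lower in astrocytes than in oligodendrocytes (-1.50 ± 0.40, adjusted p = 0.00823). Cacna1d, the L-type pore that opens at more negative voltages, was at 135, 127, 127 and 105 CPM in sorted neurons, 92.1, 63.6, 52.1 and 37.7 in astrocytes and 22.2, 19.1, 23.1 and 6.24 in oligodendrocytes. All astrocyte libraries were above all oligodendrocyte libraries, and the difference was 1.65 ± 0.46 (adjusted p = 0.018), or 1.45 ± 0.33 (adjusted p = 0.00251) without replicate 36. Cacna1d was higher in neurons than in oligodendrocytes (2.46 ± 0.46, adjusted p = 0.00116), while against astrocytes the value was 0.82 ± 0.44 (adjusted p = 0.252), and 0.79 ± 0.29 (adjusted p = 0.038) without replicate 36. Exons of Cacna1d overlap those of Chdh, a choline dehydrogenase gene on the other strand, and the library kit named in the labels keeps no strand, so reads from the shared stretch cannot be told apart. Chdh was at 18.5 ± 5.70, 21.5 ± 4.02 and 87.3 ± 34.3 CPM in sorted neurons, astrocytes and oligodendrocytes (mean ± SD of 4 libraries each), highest where Cacna1d was lowest.

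Of the T-type genes, Cacna1i passed against astrocytes in the fit of all libraries. Cacna1i was at 153, 48.4, 46.1 and 20.97 CPM in sorted neurons, 4.26, 3.12, 7.44 and 4.63 in astrocytes and 8.52, 8.10, 9.31 and 29.3 in oligodendrocytes, with neuronal replicate 2 highest and oligodendrocyte replicate 36 above 1 neuronal library. It was higher against astrocytes (3.80 ± 0.82, adjusted p = 0.00325), with no overlap, and did not pass against oligodendrocytes (1.75 ± 0.71, adjusted p = 0.0885), where it was 2.71 ± 0.56 (adjusted p = 0.00102) without replicate 36. Cacna1g, known from thalamic burst firing, gave 1.80 ± 0.63 (adjusted p = 0.0569) and 0.93 ± 0.61 (adjusted p = 0.306), with means of 112 ± 46.5 CPM in neurons, 25.3 ± 24.8 in astrocytes and 45.6 ± 15.1 in oligodendrocytes (mean ± SD of 4 libraries each). Every neuronal library of Cacna1g was above every glial one, and without replicate 36 it was higher than in astrocytes (1.70 ± 0.48, adjusted p = 0.00896). Cacna1h, which shares exon sequence with Tpsg1 (at most 1.71 CPM in a sorted library), gave 0.67 ± 0.83 (adjusted p = 0.682) and 0.10 ± 0.81 (adjusted p = 0.95), at 38.4 ± 11.2 CPM in neurons, 18.6 ± 12.9 in astrocytes and 29.3 ± 21.7 in oligodendrocytes.

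Among the alpha2delta genes, whose extracellular products raise the surface density of calcium channels, Cacna2d1 and Cacna2d3 were higher in neurons than in both glial types. Cacna2d1, a target of gabapentin, was at 164, 227, 366 and 352 CPM in sorted neurons, 17.1, 29.3, 29.8 and 17.9 in astrocytes and 23.2, 19.5, 45.4 and 41.8 in oligodendrocytes, and was higher in neurons by 3.43 ± 0.51 (adjusted p = 0.00016) and 2.62 ± 0.48 (adjusted p = 0.000897). Cacna2d3 was at 33.2, 49.3, 65.2 and 53.4 CPM in sorted neurons, 0.853, 3.12, 0 and 4.63 in astrocytes and 4.09, 4.77, 7.45 and 0 in oligodendrocytes. No glial library exceeded 7.45 CPM, and the log2 fold changes were 3.94 ± 0.79 (adjusted p = 0.00173) and 3.26 ± 0.72 (adjusted p = 0.00371). Cacna2d2, whose loss causes ataxia and epilepsy in mice, was at 180.1, 159, 75.5 and 59.5 CPM in sorted neurons, 118, 106, 127 and 194 in astrocytes and 36.8, 25.7, 35.8 and 0 in oligodendrocytes. Neurons and astrocytes overlapped (-0.37 ± 0.71, adjusted p = 0.808), and astrocytes exceeded oligodendrocytes by 2.37 ± 0.75 (adjusted p = 0.0383), or 1.98 ± 0.41 (adjusted p = 0.00129) without replicate 36, a call that held in 11 of 18 alternative settings (adjusted p up to 0.513). Against oligodendrocytes neurons gave 2.00004 ± 0.74 (adjusted p = 0.0619), and 1.59 ± 0.40 (adjusted p = 0.00488) without that library.

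Cacna2d4, known from photoreceptor synapses, was the alpha2delta gene with its highest level in oligodendrocytes. It was at 1.13, 4.18, 3.32 and 0.763 CPM in sorted neurons, 10.7, 9.37, 7.44 and 6.48 in astrocytes and 43.3, 62.0, 18.6 and 0.624 in oligodendrocytes. Replicates 10, 12 and 34 were above every neuronal and astrocyte library, whereas replicate 36 was at 0.624 CPM. Cacna2d4 was lower in neurons than in oligodendrocytes with a log2 fold change of -4.03 ± 0.88 (SE, adjusted p = 0.0036), and of -4.44 ± 0.54 (adjusted p = 4.96e-06) without replicate 36. Without it Cacna2d4 was also lower in astrocytes than in oligodendrocytes (-2.34 ± 0.50, adjusted p = 0.00161) and lower in neurons than in astrocytes (-2.10 ± 0.54, adjusted p = 0.00491). The latter comparison gave -2.08 ± 0.87 (adjusted p = 0.118) with all libraries.

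Calcium channel beta subunits, cytoplasmic partners that bring the pore to the membrane, were led by Cacnb4. It was at 896, 972, 961 and 1159 CPM in sorted neurons, 103, 228, 112 and 85.5 in astrocytes and 646, 574, 691 and 1709.7 in oligodendrocytes. Neurons and oligodendrocytes each lay above all astrocyte libraries, and replicate 36 had the highest value of any nuclear library. Cacnb4 was lower in astrocytes than in neurons (2.74 ± 0.50, adjusted p = 0.000819, neuron minus astrocyte) and than in oligodendrocytes (-3.18 ± 0.51, adjusted p = 0.000277, astrocyte minus oligodendrocyte). The latter was -2.35 ± 0.31 (adjusted p = 1.26e-05) without replicate 36. Neurons against oligodendrocytes gave -0.43 ± 0.46 (adjusted p = 0.551) and, without that library, 0.37 ± 0.30 (adjusted p = 0.36).

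Cacnb2, also the main beta subunit of the heart, was higher in neurons than in oligodendrocytes (2.49 ± 0.70, adjusted p = 0.0164), with 45.2, 104, 78.4 and 67.1 CPM in neurons and at most 15.7 in oligodendrocytes, and gave 1.27 ± 0.68 (adjusted p = 0.245) against astrocytes. Without replicate 36 it was higher in the latter comparison too (1.21 ± 0.33, adjusted p = 0.00718). Cacnb3, a neuronal beta subunit, passed in neither comparison with all libraries (1.36 ± 0.82, adjusted p = 0.312 and 0.76 ± 0.75, adjusted p = 0.513) and was higher than in astrocytes without replicate 36 (1.48 ± 0.44, adjusted p = 0.0125). The call of Cacnb1, a subunit best known from skeletal muscle, rested on 1 library. Cacnb1 was at 18.8, 20.04, 14.1 and 16.8 CPM in sorted neurons, 32.4, 26.5, 44.7 and 22.8 in astrocytes and 8.87, 12.9, 5.22 and 395 in oligodendrocytes, so that replicate 36 alone was high. The log2 fold change of neurons against oligodendrocytes was -3.41 ± 1.14 (adjusted p = 0.04) with that library and 0.68 ± 0.38 (adjusted p = 0.188) without it. Astrocytes against oligodendrocytes went from -2.45 ± 1.12 (adjusted p = 0.163) to 1.60 ± 0.40 (adjusted p = 0.00546), and neurons against astrocytes from -0.96 ± 1.09 (adjusted p = 0.652) to -0.93 ± 0.35 (adjusted p = 0.0468).

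The gamma genes, most of them TARPs, were the class in which astrocytes stood highest, at 518 ± 129 CPM against 246 ± 68.6 in neurons and 248 ± 318 in oligodendrocytes (mean ± SD of 4 libraries each). Cacng5, a TARP of the less studied second type, made up most of that sum. It was at 42.6, 36.7, 26.6 and 32.8 CPM in sorted neurons, 302, 407, 379.6 and 578 in astrocytes and 12.6, 12.4, 24.6 and 529 in oligodendrocytes. Every astrocyte library was above every neuronal library, and among oligodendrocytes replicate 36 alone was as high as the astrocytes. Cacng5 was lower in neurons than in astrocytes with a log2 fold change of -3.76 ± 1.08 (SE, adjusted p = 0.0201), and of -3.76 ± 0.32 (adjusted p = 8.78e-08) without replicate 36. The call held in 11 of 17 alternative settings (adjusted p up to 0.293). Astrocytes against oligodendrocytes gave 0.90 ± 0.97 (adjusted p = 0.647) with that library and 4.57 ± 0.38 (adjusted p = 1.1e-07) without it. Neurons against oligodendrocytes gave -2.86 ± 1.04 (adjusted p = 0.0572) and 0.81 ± 0.34 (adjusted p = 0.0715). Cacng5 made up 76.3 to 83.6% of the gamma counts in astrocyte libraries and 10.8 to 18.4% in neuronal ones.

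Further TARP genes differed between the glial types. Cacng4, a TARP of early development, was at 11.3, 10.9, 10.4 and 8.01 CPM in sorted neurons, 26.4, 20.7, 37.2 and 37.0 in astrocytes and 7.50, 4.77, 7.82 and 0 in oligodendrocytes, all astrocyte libraries above all oligodendrocyte ones, and was higher in astrocytes than in oligodendrocytes by 2.40 ± 0.66 (adjusted p = 0.018). Cacng8, an abundant hippocampal TARP, was at 6.03, 6.26, 4.98 and 3.05 CPM in sorted neurons, 13.2, 5.47, 14.9 and 20.4 in astrocytes and 2.39, 0, 2.24 and 0 in oligodendrocytes, and was higher in astrocytes than in oligodendrocytes by 3.22 ± 0.80 (adjusted p = 0.00882). Without replicate 36 these values were 2.04 ± 0.39 (adjusted p = 0.000601) and 2.95 ± 0.69 (adjusted p = 0.00346). Oligodendrocyte libraries held at most 2.39 CPM of Cacng8, where 3 counts equal 1.02 to 1.87 CPM. In astrocyte replicate 30, 3 counts equal 22.3 CPM. Its 37.2 CPM of Cacng4 and 14.9 CPM of Cacng8 thus rest on few reads. Against neurons the fit with all libraries gave -1.72 ± 0.64 (adjusted p = 0.0735) and -1.58 ± 0.71 (adjusted p = 0.15), and the fit without replicate 36 -1.72 ± 0.34 (adjusted p = 0.000655) and -1.59 ± 0.56 (adjusted p = 0.0337), so that both were then lower in neurons.

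Cacng3, a TARP of forebrain neurons, was at 82.5, 208, 130.3 and 88.5 CPM in sorted neurons, 4.69, 14.1, 37.2 and 6.79 in astrocytes and 15.00, 9.06, 8.20 and 168 in oligodendrocytes. It was higher in neurons than in astrocytes (3.26 ± 1.06, adjusted p = 0.0392), a call that held in 8 of 17 alternative settings (adjusted p up to 0.748), and gave 0.57 ± 0.91 (adjusted p = 0.703) against oligodendrocytes, where replicate 36 exceeded 3 of the neuronal libraries. Without that library it was 3.25 ± 0.48 (adjusted p = 4.42e-05). Cacng2 (stargazin) averaged 44.0 ± 11.7 CPM in neurons, against 7.86 ± 7.59 in astrocytes and 12.8 ± 8.88 in oligodendrocytes, with log2 fold changes of 2.05 ± 0.73 (adjusted p = 0.0603) and 1.48 ± 0.70 (adjusted p = 0.144). Every neuronal library of Cacng2 was above every glial one, and without replicate 36 it was higher than in astrocytes (1.98 ± 0.44, adjusted p = 0.0017). Against oligodendrocytes Cacng4 gave 0.68 ± 0.64 (adjusted p = 0.492). Cacng7, of the same type as Cacng5, passed in neither comparison with neurons (-0.72 ± 0.60, adjusted p = 0.503 and -0.89 ± 0.59, adjusted p = 0.316). Of 6 other AMPA receptor auxiliary subunit genes, Cnih2 (2.51 ± 0.83) and Cnih3 (2.90 ± 0.83) were higher in neurons than in astrocytes and 4 did not pass. Shisa7 was higher in neurons than in oligodendrocytes (2.47 ± 0.78), and Shisa9 in astrocytes than in oligodendrocytes (3.10 ± 0.75). Without replicate 36, 4 of the 6 were higher in neurons than in astrocytes and 1 lower (Shisa9 at -1.13 ± 0.33), 2 were higher against oligodendrocytes, and Cnih3 was lower in astrocytes than in oligodendrocytes (-2.25 ± 0.48).

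**Figure D3:**
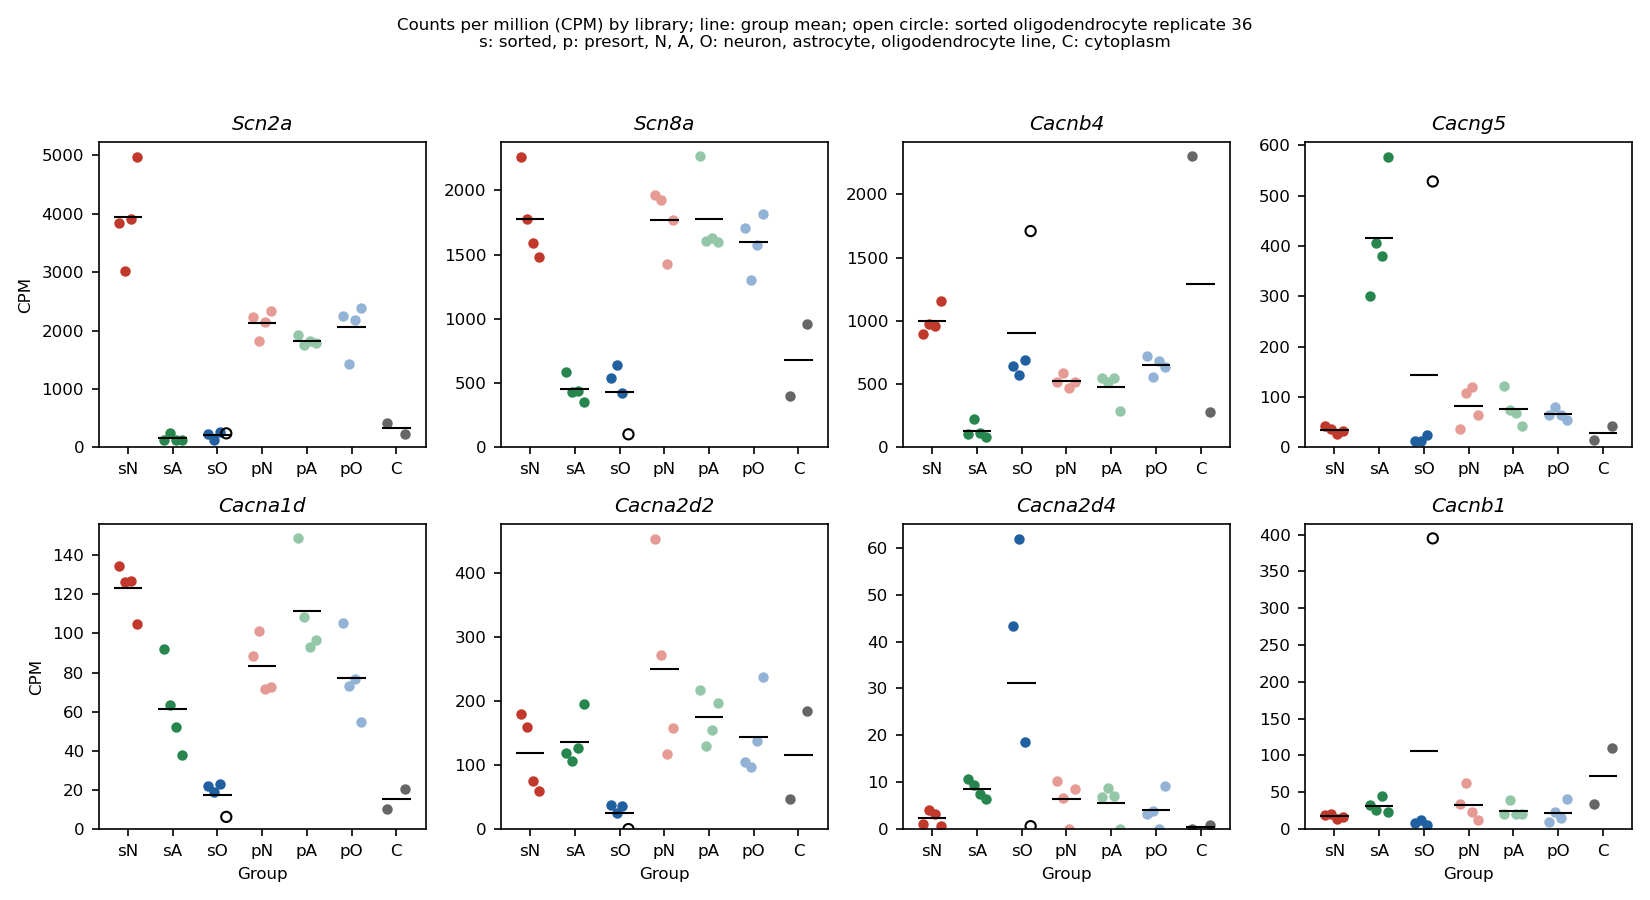
CPM of 8 members in every library (points), with group means (lines) and sorted oligodendrocyte replicate 36 as an open circle, on linear axes that start at 0. Scn2a and Scn8a are highest in sorted neurons or presort nuclei, Cacnb4 is low in sorted astrocytes, Cacng5 is high in them, Cacna2d4 is high in 3 sorted oligodendrocyte libraries, and Cacnb1 is high in replicate 36 alone.

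Between the glial types 4 members (Cacna2d2, Cacna1d, Cacng8 and Cacng4) were higher and 1 (Cacnb4) lower in astrocytes, of 34 tested, where 9.62% of all genes were higher and 7.49% lower. Without replicate 36 the count was 6 higher and 5 lower, where 14.6% and 11.7% of all genes were. The 6 were the same 4 with Cacng5 and Cacnb1, and the 5 were Cacnb4, Cacna2d4, Nalcn, Cacna1c and Cacna1b. The share of members higher, 11.8%, was near that of all genes, and the share lower was 2.94%. The groups did not overlap for 4 members higher (15.8% of all genes) and 2 lower (6.08%).

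Partners of calcium channels were mixed. Of 14 tested, 5 were higher in neurons than in astrocytes: the active-zone scaffolds Rims1 (3.80 ± 0.79) and Rims2 (2.27 ± 0.44), the channel-inhibiting small GTPase Rem2 (3.60 ± 0.92), the kinase anchor Akap5 (1.38 ± 0.42) and the kinase Camk2b (2.06 ± 0.68). Gem, of the same GTPase family as Rem2, was lower (-3.10 ± 0.99). Against oligodendrocytes 6 were higher: Rims1, Rims2, Rimbp2, Tspoap1, Rem2 and Camk2b, from 2.01 to 3.65. Tspoap1 (1.96 ± 0.60) and Gem (5.05 ± 1.25) were higher in astrocytes than in oligodendrocytes. Without replicate 36, 9 of the 14 were higher in neurons than in astrocytes and Gem again lower, 8 were higher against oligodendrocytes, and Rims1 was lower in astrocytes than in oligodendrocytes (-1.50 ± 0.46).

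Markers of other cells moved with these comparisons. As a share of their level in sorted neurons, the 8 neuron markers stood at 8.21% in sorted astrocytes and 12.5% in oligodendrocytes, the 4 cerebellar granule cell markers at 1.86% and 1.96%, and the 41 channel genes at 15.7% and 20.1%. Other neuronal lists varied, with 4 glutamatergic markers at 7.37% and 50.8%, 3 GABAergic markers at 33.4% and 31.5% and 2 Purkinje cell markers at 37.5% and 29.01%. The glutamatergic sum ranged from 45.8 to 871 CPM among the oligodendrocyte libraries. Markers of endothelial cells were at 533% and 406% of the neuronal level and those of oligodendrocyte precursors at 285% and 353%, with sums of at most 88.7 and 104 CPM in a sorted library. None of the 8 neuron markers was at 0 in any sorted glial library, and 5 of 8 were higher in neurons in each comparison. The 5 ependymal and choroid plexus markers summed to 586 to 7063 CPM in sorted astrocytes and 90.1 to 141 in neurons, with 4 of 5 lower in neurons. The 6 mural and fibroblast markers summed to 313 to 433 CPM and 6.64 to 18.5 CPM, with 4 lower. In oligodendrocytes those lists summed to 44.9 to 165 and 4.37 to 163 CPM. Their part in the members' levels was not tested.

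Sex coincided with the block of replicate numbers, males holding 1 to 12 and females 25 to 36. Within males alone, 2 libraries a group, neurons had 23 members higher and 2 lower than astrocytes, and 22 and 1 than oligodendrocytes, where 12.2%, 14.9%, 13.8% and 14.5% of all genes were. Within females alone, which include the shallow astrocyte replicate 30 and oligodendrocyte replicate 36, 1 member (Scn2a) was higher in each comparison, where 0.0606% and 0.0681% of all genes were higher. The members' median log2 fold change against astrocytes was 2.32 in both, and against oligodendrocytes it was 2.05 in males and 1.65 in females.

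No member differed between the 3 lines before sorting at the depth of these libraries. Of 28 members tested jointly over the presort groups, 0 passed by edgeR, 0 had an unadjusted p under 0.05 and 0 passed by DESeq2. The background was 0% of 6049 genes, and the smallest adjusted p of a member was 0.999. Presort libraries were shallow, with a median of 260451 counts, and 13 members were not tested. Differences in low members could have been missed at this depth, which was not assessed.

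Sorted nuclei of the neuron line held more of several channel genes than presort nuclei, and sorted nuclei of the glial lines held less of many. In the neuron line 5 of 32 tested members were higher in sorted than in presort nuclei and none was lower, where 1.27% of all genes were higher and 5.1% lower. These were Cacna2d3 (1.72 ± 0.38, adjusted p = 0.0125), Cacnb4 (1.05 ± 0.20, adjusted p = 0.00377), Scn2a (1.002 ± 0.21, adjusted p = 0.00848), Nalcn (0.97 ± 0.28, adjusted p = 0.0492) and Scn1a (0.92 ± 0.19, adjusted p = 0.00733). The call of Nalcn held in 4 of 13 alternative settings (adjusted p up to 0.575). Presort nuclei of this line had 10.2, 16.3, 18.9 and 21.3 CPM of Cacna2d3, all below the 33.2 to 65.2 CPM of sorted neurons. The lowest equals the 3-count floor of presort replicate 1, and the floors of these presort libraries ranged from 9.79 to 12.8 CPM. The presort values of Cacna2d3 thus rest on few reads. Scn2a was at 2229, 1828, 2143 and 2332 CPM before sorting, and Scn1a at 1346, 1538, 1153 and 1279. Cacnb4 was at 515, 584, 469 and 520.2 CPM and Nalcn at 78.4, 78.4, 71.8 and 38.4. For each of these genes all presort libraries lay below all sorted neuronal libraries, as they did for 7 members in all (4.29% of all genes), and for 1 they lay above (9.13%). Ank3, Fgf14, Nedd4l, Rims1, Rims2 and Unc79 among the partners were also higher (from 0.70 to 1.11), and Nfasc was lower (-1.07 ± 0.24). Within males alone 0 members passed, where 0% of all genes were higher and 1.14% lower, and within females alone 6 were higher and 2 lower, where 2.14% and 4.91% were. In this comparison 3 of 4 cerebellar granule cell markers and 1 of 8 neuron markers were higher. None of the 4 glutamatergic, 3 GABAergic and 2 Purkinje cell markers passed. All 8 oligodendrocyte markers were lower, as were 6 astrocyte and 6 mural and fibroblast markers. The part of these lists was not tested.

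In the astrocyte line 23 of 30 tested members were lower in sorted nuclei and 1 was higher, where 15.2% of all genes were lower and 13.7% higher. The median log2 fold change was -2.29 for members and -0.03 for all genes. Cacna1b fell from 223, 156, 282 and 256 CPM in presort nuclei to 17.9, 11.3, 22.3 and 8.33 in sorted ones, a log2 fold change of -3.91 ± 0.36 (adjusted p = 1.56e-07). Cacna1i fell from 67.6, 91.0, 62.3 and 75.5 CPM (-3.86 ± 0.40, adjusted p = 4.95e-07), and Cacna1c from 277, 182, 169 and 239 (-3.51 ± 0.37, adjusted p = 5.64e-07). The presort and sorted libraries did not overlap in any of these 3 genes.

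Cacna1e, at 683, 481, 612 and 633 CPM before sorting, gave a log2 fold change of -3.43 ± 0.30 (adjusted p = 1.13e-07). Scn2a, at 1921, 1760.0, 1816 and 1787 CPM, gave -3.24 ± 0.28 (adjusted p = 8.75e-08), and Scn3a, at 94.7, 186, 285 and 193, gave -3.15 ± 0.38 (adjusted p = 2.68e-06). Cacng3, at 122, 147, 96.5 and 29.4 CPM, gave -3.04 ± 0.51 (adjusted p = 9e-05), and Nalcn, at 81.2, 86.7, 80.9 and 46.1, gave -3.03 ± 0.43 (adjusted p = 1.5e-05). All 5 were lower in sorted nuclei, and Cacng3 was the one of these whose groups overlapped. For 22 members all sorted libraries lay below all presort ones (18.6% of all genes), and for 1 above (9.54%). The sodium beta subunits Scn2b, Scn3b and Scn4b and 7 of 8 tested pore-forming calcium channel genes were among those lower. The single member higher was Cacng5, which rose from 122, 73.7, 68.7 and 41.9 CPM to 302, 407, 379.6 and 578, by 2.74 ± 0.32 (SE, adjusted p = 1.72e-06), with no overlap. The 6 that did not pass were Cacna1d, Cacna2d2, Cacnb1, Cacng4, Cacng7 and Cacng8, with log2 fold changes from -0.54 to 1.03. All 3 genes of the Nalcn complex and 5 of 6 AMPA receptor auxiliary genes were lower, and Shisa9 higher (0.99 ± 0.30). Within males alone 16 members were lower and 1 higher (7.16% and 6.49% of all genes), and within females alone 21 and 1 (11.7% and 9.32%). All 4 granule cell markers and 5 of 8 neuron markers were also lower. So were 3 glutamatergic markers and 1 GABAergic marker, while 2 GABAergic markers did not pass. The part of these lists was not tested.

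In the oligodendrocyte line 4 of 30 tested members were lower and none higher, where 3.24% of all genes were lower and 5.12% higher. They were Cacna1e (-3.22 ± 0.70, adjusted p = 0.0176), Scn3a (-3.10 ± 0.72, adjusted p = 0.0234), Scn2a (-2.64 ± 0.45, adjusted p = 0.00562) and Cacna1a (-2.22 ± 0.46, adjusted p = 0.0146). Of the alternative settings, 8 of 13 kept the calls of Cacna1e and Cacna1a and 7 of 13 that of Scn3a. Presort levels were 612, 462, 578 and 505 CPM for Cacna1e and 338, 177, 237 and 137 for Scn3a. They were 2247, 1432, 2187 and 2385 CPM for Scn2a and 229.5, 277, 253 and 355 for Cacna1a. All were above the sorted libraries of the line, as for 18 members in all (19.7% of all genes), and no member had the reverse order (6%). Without replicate 36, 20 of 25 tested members were lower and none higher, where 16.8% of all genes were lower and 16.7% higher. Cacng5 was among the 20 (-1.67 ± 0.38, adjusted p = 0.00363), and Cacnb4 (0.31 ± 0.24, adjusted p = 0.367), Cacna1h, Cacng2, Cacng7 and Nalcn did not pass. With all libraries Cacng5 and Cacnb4 gave 2.29 and 1.30, neither passing. A joint test of the difference among the lines passed for 18 of 33 members, against 24.5% of all genes. Within males alone 17 members were lower and 1 higher (10% and 10.1% of all genes), and within females alone, with replicate 36, none passed (0% of all genes). With all libraries, all 4 granule cell markers and 3 of 8 neuron markers were lower. None of the 4 glutamatergic, 3 GABAergic and 2 Purkinje cell markers passed. The part of these lists was not tested.

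**Figure D4:**
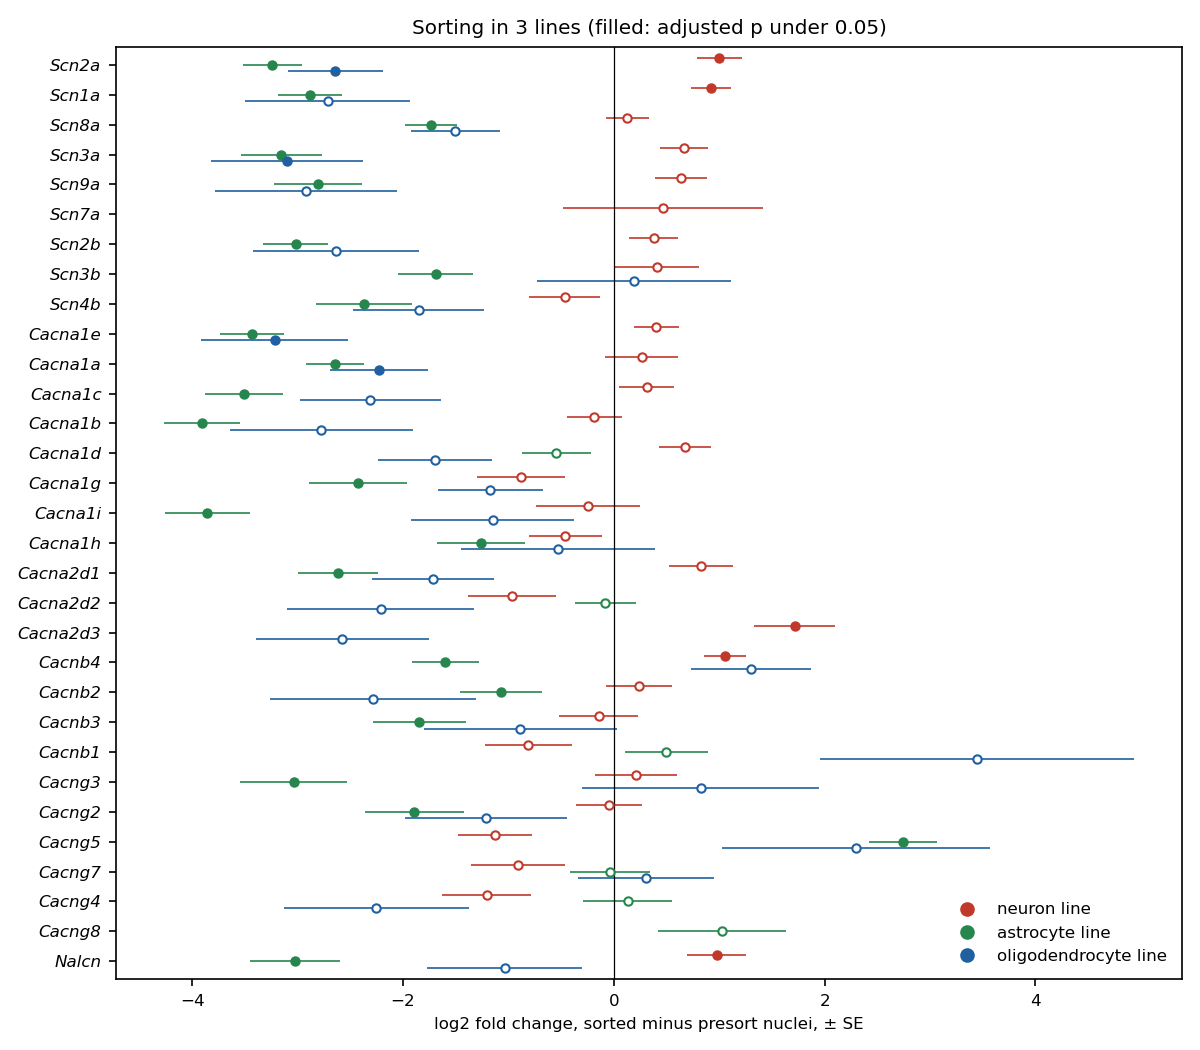
Log2 fold changes of sorted against presort nuclei (points) with standard errors (bars) in the 3 lines, filled where the adjusted p is below 0.05, all libraries included. Neuron-line values lie near or above 0 for most sodium channel genes, and astrocyte-line values lie below -1 for most, with Cacng5 at 2.74.

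Presort nuclei and cytoplasm differed in members of several classes, and a difference between classes was not tested. Of 30 tested members, 11 (36.7%) were higher in presort nuclei and 6 (20%) in cytoplasm, where 20.6% and 29.8% of all genes were. The 11 were all 5 tested pore-forming sodium channel genes, 5 pore-forming calcium channel genes (Cacna1a, Cacna1b, Cacna1c, Cacna1d and Cacna1e) and Cacna2d3. The 6 were auxiliary subunits, among them Cacnb1, Cacnb3, Cacnb4, Cacng2 and Cacng7. For 11 members all presort libraries were above both cytoplasmic ones, against 22.3% of all genes, and for none below, against 10.2%. The cytoplasmic libraries came from different lines and sexes and differed from each other. Genes whose levels are given below therefore have values with 1 or each of these libraries left out. Members that did not pass could depend on them too. The log2 fold change of Cacna1g was -0.28 with both, -1.12 without cytoplasm replicate 1 and 2.94 without replicate 2.

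Cacna1d ranged from 54.6 to 149 CPM over the 12 presort libraries (median 90.7) and was 10.3 and 20.6 CPM in the cytoplasmic ones. The log2 fold change, presort minus cytoplasm, was 2.004 ± 0.39 (adjusted p = 0.000209), and 1.78 (adjusted p = 0.00274) or 2.42 (adjusted p = 0.000237) without cytoplasm replicate 1 or 2. Scn2a ranged from 1432 to 2385 CPM over the 12 presort libraries (median 2032) and was 425 and 233 CPM in the cytoplasmic ones, with 1.98 ± 0.32 (adjusted p = 3.42e-05), and 2.76 (adjusted p = 4.23e-06) or 1.55 (adjusted p = 0.000851). Both genes were higher in every presort library than in either cytoplasmic one. Cacna1e ranged from 426 to 683 CPM over the 12 presort libraries (median 552) and was 93.2 and 95.7 CPM in the cytoplasmic ones, with 1.96 ± 0.29 (adjusted p = 1.15e-05), and 2.18 (adjusted p = 4.84e-05) or 1.87 (adjusted p = 0.000149). Scn3a ranged from 94.7 to 338 CPM over the 12 presort libraries (median 194) and was 50.7 and 40.2 CPM in the cytoplasmic ones, with 1.60 ± 0.39 (adjusted p = 0.00212), and 2.03 (adjusted p = 0.0021) or 1.36 (adjusted p = 0.0198). These 4 stayed higher in presort nuclei with either cytoplasmic library left out. So did Scn1a, Scn9a and Cacna1c, while Cacna1a, Cacna1b, Cacna2d3 and Scn8a did not pass without cytoplasm replicate 1. Over all alternative settings, the call of Cacna2d3 held in 6 of 15 and that of Cacna1b in 12 of 17. The call of Scn8a held in 15 of 17 and that of Cacna1a in 16 of 17. Presort libraries held 6.76 to 44.6 CPM of Cacna2d3. Apart from astrocyte-line replicate 29, 3 counts equal 9.56 to 20.3 CPM in them, so these values rest on few reads.

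The genes higher in cytoplasm were less even. Cacnb3 ranged from 23.1 to 65.1 CPM over the 12 presort libraries (median 33.8) and was 47.5 and 170.1 CPM in the cytoplasmic ones, with -2.03 ± 0.34 (adjusted p = 5.48e-05), and -2.51 (adjusted p = 2.29e-06) or -1.02 (adjusted p = 0.0334). Cacng2 ranged from 18.2 to 57.9 CPM over the 12 presort libraries (median 43.9) and was 54.9 and 132 CPM in the cytoplasmic ones, with -1.62 ± 0.31 (adjusted p = 0.000197), and -1.93 (adjusted p = 5.57e-05) or -1.01 (adjusted p = 0.023). Both remained lower in presort nuclei with either library left out, though the groups overlapped. Cacnb1 ranged from 9.56 to 62.0 CPM over the 12 presort libraries (median 21.8) and was 34.5 and 109.9 CPM in the cytoplasmic ones, with -1.95 ± 0.42 (adjusted p = 0.000595), and -2.40 (adjusted p = 7.19e-05) or -1.07 (adjusted p = 0.0865). Cacnb4 ranged from 289 to 720.4 CPM over the 12 presort libraries (median 548) and was 2299.6 and 276 CPM in the cytoplasmic ones. Its value of -1.92 ± 0.39 (adjusted p = 0.000368) rested on the first of these and was 0.65 (adjusted p = 0.151) without it. Cacng7, at 25.6 and 155 CPM in cytoplasm, gave -1.48 ± 0.39 (adjusted p = 0.00368) and 0.13 (adjusted p = 0.818) without replicate 2.

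Gene length differed between these sets of members. The 11 members higher in presort nuclei had a median genomic span of 176.1 kb (110.5 to 816.9) and a median exonic length of 12.6 kb, in GENCODE M21. The 6 lower members had 28.4 kb (10.5 to 248.5) and 4.27 kb, and the 13 that did not pass had 65.8 kb (12.3 to 439.8) and 7.95 kb, so the ranges of span overlapped. Over the 30 members the log2 fold change had a Spearman rho of 0.58 with span and 0.69 with exonic length, as a description across genes that are not independent. The rho with span was 0.68 without cytoplasm replicate 1 and 0.41 without replicate 2. Among the lower members Cacnb4 (248.5 kb) and Cacng2 (128.3 kb) were longer than Scn3a, the shortest of the higher ones. Whether introns were counted is not given in the sources used here. The 8 neuron markers summed to 6850 to 13814 CPM in cytoplasm and 4114 to 6804 CPM in presort nuclei. Of these, 6 were lower and 1 higher in presort nuclei. The 4 cerebellar granule cell markers summed to 322 to 448 CPM in cytoplasm. In presort nuclei of the neuron, astrocyte and oligodendrocyte lines their means were 4556, 3032 and 3628 CPM, with 3 markers higher and 0 lower. All 4 endothelial and 6 mural and fibroblast markers were also higher in nuclei, while 3 glutamatergic and 2 GABAergic markers were lower. The part of these lists was not tested.

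**Figure D5:**
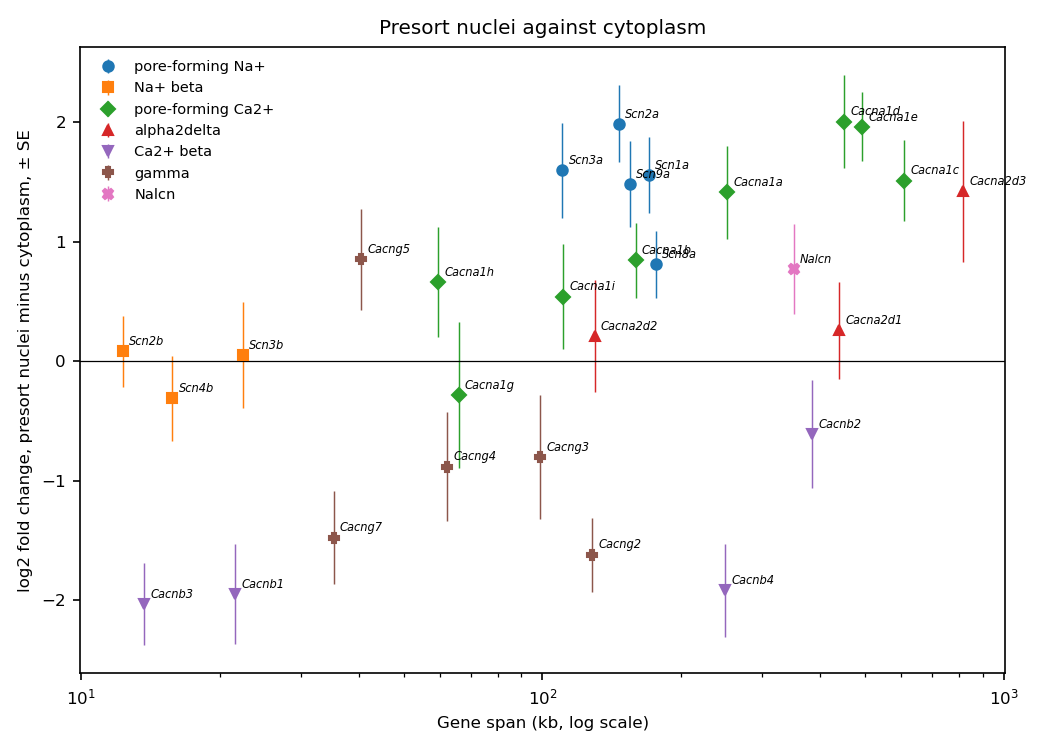
Log2 fold change of presort nuclei against cytoplasm (points, with standard errors) for 29 tested members against gene span in kb on a log axis, with symbols for the class. Pore-forming genes, with long spans, lie mostly above 0, and Cacnb3, Cacnb1, Cacnb4 and Cacng2 lie lowest.

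Per kilobase of exon, the 5 highest members in sorted neurons were Scn2a (309.1 CPM per kb), Scn1a (208), Scn2b (120.4), Scn8a (113) and Cacnb4 (111). In sorted astrocytes they were Cacng5, Scn8a, Cacna2d2, Cacnb4 and Cacng7, and in sorted oligodendrocytes Cacnb4, Cacng5, Scn8a, Cacnb1 and Cacng3, of which Cacng5, Cacnb1 and Cacng3 were far higher in replicate 36 than in the other 3 libraries. Dividing by genomic span in place of exon length kept 4, 2 and 3 of the 5. In cytoplasm the 5 highest included Cacnb4, Scn2b, Scn8a and Cacng3. In CPM, neighbours in the neuronal order overlapped in their libraries for Scn1a and Scn8a, and Scn2a was above both in every library.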

How the data were processed

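The authors deposited 1 table of raw read counts per gene, whole numbers for 27501 Ensembl gene identifiers and GFP in 26 libraries. Trimmomatic, STAR, Bowtie2, bedtools and edgeR are named, with no version or role, per the submitters' processing notes. What is not given in the sources used here includes the genome build, the counted regions and the handling of strand and of shared reads. Per the labels' protocols, the NuGEN Ovation kit was used, which keeps no strand. Symbols, lengths and chromosomes came from GENCODE M21, which held 26495 of the identifiers.

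Counts were tested with edgeR 4.0.16 (R 4.3.3): TMM normalization, filterByExpr with a minimum count of 10 by group, the quasi-likelihood F test, and Benjamini-Hochberg adjustment over all genes tested, with a threshold of 0.05. Every adjusted p is from that test. The 12 sorted libraries were fitted together, each line's sorted and presort libraries together (8 libraries), the 12 presort libraries with the 2 cytoplasmic ones, and all 24 nuclear libraries for the difference among lines. The SE of a log2 fold change is the fold change over the square root of its F statistic. CPM are counts scaled to the library total, without TMM. The code was tested on simulated data.

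Alternatives were RLE size factors, DESeq2 1.42.0, no filter, each library left out, males or females alone, and all 24 nuclear libraries in 1 fit. In the comparisons of sorted neurons with glia, members are named with their fold changes by a rule. The rule is that a member passed or had a mean of at least 10 CPM in a group compared. Up to 8 called members of largest absolute fold change per comparison, and the most abundant of each class, have values in every library. For the sorting and cytoplasm comparisons, most members that did not pass, and some of those that passed, are summarised without their fold changes. Values of 2 members and the sequence of 1 are not reported here, though counts and sums over members include them and the search for libraries that stand apart does not. The members, partner lists and marker lists were chosen with earlier results of these data known.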

Additional observations from a re-analysis of the deposited data

Results flagged for a closer look

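In groups of 4 libraries, Dixon's gap ratio (above its 95% critical value) marked 20 of 171 member and group pairs with a mean of at least 10 CPM, or 11.7%, where chance marks about 1 in 20. Sorted oligodendrocyte replicate 36 held 5 of them, all high: Cacnb1 at 395 CPM (the others 5.22 to 12.9), Cacng5 at 529 (12.4 to 24.6), Cacng3 at 168 (8.20 to 15.0), Cacna1i at 29.3 (8.10 to 9.31) and Cacnb4 at 1709.7 (574 to 691). In the other sorted libraries, Scn1a was high in neuron replicate 28 at 2716 CPM. Scn2a was high in astrocyte replicate 8 at 253 CPM and Cacna1a in astrocyte replicate 6 at 61.0. Astrocyte replicate 30, the shallowest sorted library, was high in Cacnb3 at 29.8 CPM and in Scn3b at 67.0. Its floor of 3 counts is 22.3 CPM, so these values rest on few reads. Scn3a was low in astrocyte replicate 32 at 9.88 CPM.

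Among presort libraries of the neuron line, replicate 1 was high in Cacna1a at 511 CPM and Cacna1i at 119, replicate 3 was high in Cacna1h at 91.4, and replicate 27 was low in Nalcn at 38.4. In the astrocyte line, replicate 5 was high in Scn8a at 2266 CPM, replicate 7 was high in Cacnb1 at 39.0, and replicate 31 was low in Cacnb4 at 289 and Nalcn at 46.1. In the oligodendrocyte line, replicate 33 was high in Cacnb3 at 65.1 CPM. Apart from astrocyte-line replicate 29, the floor of 3 counts in presort libraries was 9.56 to 20.3 CPM. Presort flags at low CPM thus rest on few reads.

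The difference between sorted and presort nuclei was itself unlike among the 3 lines for 18 of 33 tested members, against 24.5% of all genes. The test was edgeR's joint test of the interaction terms over 24 libraries. Scn2a had an adjusted p of 3.02e-08, with log2 fold changes of 1.002, -3.24 and -2.64 in the neuron, astrocyte and oligodendrocyte lines. For the other pore-forming sodium channel genes the adjusted p was 5.38e-05 for Scn3a, 0.000153 for Scn1a, 0.000893 for Scn9a and 0.00219 for Scn8a, and for the beta subunit Scn2b it was 0.000721. For pore-forming calcium channel genes it was 2.02e-05 for Cacna1e, 0.000154 for Cacna1a, 0.000231 for Cacna1c, 0.00115 for Cacna1b, 0.00306 for Cacna1d and 0.00634 for Cacna1i. For auxiliary subunits it was 0.000104 for Cacna2d3, 0.000296 for Cacna2d1, 0.0333 for Cacna2d4, 0.000399 for Cacnb4 and 0.0324 for Cacng5, and for Nalcn it was 0.000575. These tests include replicate 36. Cacng5 had log2 fold changes of 2.74 in the astrocyte line and 2.29 in the oligodendrocyte line, the latter -1.67 without that library.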

How the results depend on the processing

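No paired analysis was made because the labels do not say which presort library belongs to which sorted library. Replicate numbers alternate between presort and sorted nuclei within each line and sex, as in presort neuron-line replicate 1 and sorted neuron replicate 2. Whether such neighbours come from the same mouse is not given in the sources used here. The tests treat all libraries as independent. Counts of members called were treated apart and follow below. Of 1948 recomputed log2 fold changes, 1717 kept their direction and side of the threshold, 155 became weaker, 59 stronger and 17 changed sign. The cause was not tested for those that changed. With females alone, 1 member was higher in neurons against each glial type (0.0606% and 0.0681% of all genes). Those lower numbered 0 (0.288% and 0.863%). Astrocytes against oligodendrocytes gave 0 in both directions (0.129% higher and 0.379% lower). The neuron line had 2 lower (4.91%) and the oligodendrocyte line 0 lower (0%). Among lines 1 member differed, with no share of all genes given. With males alone, 2 members were lower in neurons than in astrocytes (14.9% of all genes) and 1 than in oligodendrocytes (14.5%). In astrocytes, 4 were lower than in oligodendrocytes (10.3%). None was higher in the sorted neuron line (0%), and the oligodendrocyte line had 1 higher (10.1%) and 17 lower (10%). Fewer samples enter those fits. In the fit of all 24 nuclear libraries, 2 members were lower in neurons than in astrocytes (13.8% of all genes). In astrocytes, 8 were lower than in oligodendrocytes in that fit (15.1%). DESeq2 called 2 lower in astrocytes than in oligodendrocytes (7.22% of all genes) and 1 lower in the neuron line (6.18%). In the oligodendrocyte line it called 1 higher (4.58%) and 16 lower (8.71%), where RLE factors called 9 lower (4.37%). Without a filter, for which no share of all genes is given, 4 members were lower in neurons and 3 in astrocytes than in oligodendrocytes. The oligodendrocyte line then had 1 higher and 8 lower. RLE factors moved the median log2 fold change of all genes in that line from -0.07 to -0.19 and DESeq2 to -0.57, and by DESeq2 it was -0.15 in the neuron line, -0.20 in the astrocyte line and 0.25 for presort nuclei against cytoplasm.

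Leaving out each library in turn, members higher in neurons numbered 16 to 25 against astrocytes and 14 to 21 against oligodendrocytes, and those lower 0 to 5 and 1 to 3. The count lower than astrocytes was 0 without any 1 of the 4 sorted neuron libraries or astrocyte replicate 32, and 5 without oligodendrocyte replicate 36. The count lower than oligodendrocytes was 1 without any 1 of the 4 neuron or 4 astrocyte libraries or replicate 36. Astrocytes against oligodendrocytes gave 2 to 6 higher (2 without astrocyte replicate 6 or 32, 6 without 36) and 1 to 5 lower (2 without oligodendrocyte replicate 10, 12 or 34, 5 without 36). The neuron line gave 3 to 7 higher (3 without neuron replicate 26) and 0 to 4 lower (4 without neuron replicate 2, 1 without presort replicate 1). The astrocyte line gave 1 higher throughout and 16 to 24 lower. The oligodendrocyte line gave 0 higher throughout and 1 to 20 lower (20 without 36, 1 without any 1 presort library). Presort nuclei against cytoplasm gave 9 to 15 higher and 3 to 6 lower (3 without cytoplasm replicate 2). Presort lines differed in 0 members throughout, and 16 to 25 members differed in sorting among lines. Of these fits, shares of all genes are given only for those without oligodendrocyte replicate 36. Other changed counts cannot be set against a change in all genes.

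For neurons against astrocytes, Cacna2d2 was 0.43 and Cacng7 0.061 in males alone. For neurons against oligodendrocytes, males alone gave -0.41 for Cacna1h, 0.54 for Cacnb1, 0.31 for Cacnb4 and 1.37 for Cacng5, and females alone -0.53 for Cacng3. Leaving out 1 library at a time, these 5 ranged from -0.32 to 0.45 (Cacna1h), -4.09 to 0.68 (Cacnb1), -0.85 to 0.37 (Cacnb4), -3.54 to 0.81 (Cacng5) and -0.075 to 3.25 (Cacng3). The sign changed without replicate 36, except for Cacng3, which was below 0 without oligodendrocyte replicate 10 or 12. For astrocytes against oligodendrocytes, Cacnb1 was 1.32 in males and ranged from -3.14 to 1.60, its highest without replicate 36. For presort nuclei against cytoplasm, Cacnb4 ranged from -2.75 to 0.65, the latter without cytoplasm replicate 1, and Cacng7 from -2.13 to 0.13, the latter without replicate 2.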

Other observations

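Several members are neighbours in the genome (GENCODE M21, GRCm38). Scn3a, Scn2a, Scn1a, Scn9a and Scn7a lie in 1 cluster on chromosome 2. The first 4 of these were higher in sorted neurons than in both glial types, and Scn7a, the cluster's atypical member, had a mean of 5.92 ± 4.31 CPM in neurons and 5.63 ± 1.89 in astrocytes (mean ± SD of 4 libraries each). Cacng5, Cacng4 and Cacng1 lie together on chromosome 11, and Cacng7, Cacng8 and Cacng6 on chromosome 7. In the fit without oligodendrocyte replicate 36, Cacng5, Cacng4 and Cacng8 were each higher in astrocytes than in neurons and oligodendrocytes, while Cacng7 passed in neither comparison (-0.77 ± 0.50, adjusted p = 0.245, neuron minus astrocyte, and -0.09 ± 0.53, adjusted p = 0.936, astrocyte minus oligodendrocyte), and Cacng1 and Cacng6 were too low to be tested.

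The makeup of the calcium channel classes differed between the sorted types, as a description with no test. Cacna1d made up 5.80 to 8.79% of pore-forming calcium channel counts in neuronal libraries, 20.7 to 29.2% in astrocyte and 5.62 to 8.24% in oligodendrocyte libraries. Cacna2d2 made up 12.8 to 47.7% of alpha2delta counts in neurons and 71.7 to 87.0% in astrocytes. Cacnb4 made up 85.2 to 92.1% of calcium channel beta counts in neurons, 55.6 to 75.6% in astrocytes and 81.2 to 95.8% in oligodendrocytes.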
